A study of Mus musculus with 6 samples.

Results

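The amyloid precursor family of membrane proteins, their partner calsyntenin-1 and the FE65 adaptors were followed through the splice junction reads of a mouse neuroblastoma line. The members are the genes App, Aplp1, Aplp2, Clstn1, Apbb1 and Apbb2, and every splicing event of a deposited table that carries one of these 6 gene symbols was taken. That gave 40 of the 45595 events of the table, in 6 of its 9590 genes: 1 event of App, 3 of Aplp1, 4 of Aplp2, 3 of Clstn1, 17 of Apbb1 and 12 of Apbb2. The group was selected on the p-value of a Clstn1 exon in the authors' deposited table, one of the smallest there, so the values of Clstn1 are given as a description, with no test.

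The RNA-seq data come from total RNA of Neuro-2a cells (N2a), with 3 libraries of genotype hnRNP DL-/- and 3 of wild type, and the series asked how alternative splicing differs between them. hnRNP DL belongs to the heterogeneous nuclear ribonucleoproteins, which bind nascent RNA. The columns of the table form 2 unnamed sets of 3 libraries, here set 1 and set 2; which of them holds the knockout cells is not stated, no genotype is attached to either, and every difference is set 1 minus set 2. The labels do not say how the knockout was made, whether it is 1 clone, or whether the libraries of a genotype came from separate cultures, so p-values measure only the spread between these libraries.

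APP and its relatives APLP1 and APLP2 span the membrane once and are cut in turn by the alpha- or beta-secretase and then by gamma-secretase; the amyloid beta peptide comes from APP. Calsyntenin-1, also called alcadein alpha, is a cadherin-like membrane protein that is cut by the same kinds of protease and docks vesicles on kinesin-1 light chains. FE65 (Apbb1) and FE65-like 1 (Apbb2) are adaptors whose phosphotyrosine-binding domains hold the cytoplasmic tails of APP family proteins and bring them together with nuclear partners. Several of these genes are spliced differently in neurons and in other cells, through short exons and an exon that encodes a Kunitz protease inhibitor domain.

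The short alternative exons and the Kunitz exon, on which the results turn, are shown here from the GENCODE annotation of GRCm38 (the assembly of build mm10), 5′ to 3′ on the gene's strand, with the alternative exon in capitals and 15 bases of the neighbouring exons in lower case. The first pair belongs to Clstn1, on the plus strand of chromosome 4: the 57-base exon at chr4:149641658-149641714 whose p chose the group, and the 30-base exon at chr4:149626087-149626116.
Clstn1 57-base exon: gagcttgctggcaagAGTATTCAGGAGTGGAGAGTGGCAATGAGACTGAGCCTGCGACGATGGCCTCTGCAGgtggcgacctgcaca
Clstn1 30-base exon: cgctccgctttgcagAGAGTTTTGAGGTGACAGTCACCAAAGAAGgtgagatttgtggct

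The next exons are those of App and Aplp2 that lie at the same place of both genes, just before the exons that encode the membrane-spanning part. That of App lies at chr16:84971408-84971461 on the minus strand and has 54 bases. That of Aplp2 lies at chr9:31156190-31156225 on the minus strand and has 36 bases. The last 15 bases of the exon before are identical at 10 of 15 positions between the genes, and the first 15 bases of the exon after at 10 of 15. In both genes the skipping form joins these neighbours into a known attachment site for chondroitin sulphate, and the joined sequence is given with each.
App 54-base exon: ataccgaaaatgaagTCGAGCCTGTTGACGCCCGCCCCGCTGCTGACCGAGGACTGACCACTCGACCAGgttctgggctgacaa
App skipping form: ataccgaaaatgaaggttctgggctgacaa
Aplp2 36-base exon: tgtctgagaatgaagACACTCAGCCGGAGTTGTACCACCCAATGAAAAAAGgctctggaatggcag
Aplp2 skipping form: tgtctgagaatgaaggctctggaatggcag

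Aplp2 also has the 168-base Kunitz exon, at chr9:31167561-31167728 on the minus strand. It is identical at 114 of 168 positions (67.9%) to the Kunitz exon of App at chr16:85043576-85043743, for which the table holds no event.
Aplp2 168-base exon: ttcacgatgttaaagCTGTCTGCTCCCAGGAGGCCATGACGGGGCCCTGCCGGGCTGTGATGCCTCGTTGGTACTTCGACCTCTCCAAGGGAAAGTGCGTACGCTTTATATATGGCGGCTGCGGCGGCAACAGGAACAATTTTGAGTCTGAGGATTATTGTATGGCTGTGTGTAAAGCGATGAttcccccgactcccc

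Finally, Apbb1 and Apbb2 each have an exon of 6 bases, at chr7:105565946-105565951 and chr5:66323602-66323607, both on the minus strand. The exons are identical at 6 of 6 positions, the 15 bases after them at 14 of 15, and the 15 bases before them at 9 of 15. Such microexons are few in the table, with 15 distinct skipped exons of 6 bases among 28570.
Apbb1 6-base exon: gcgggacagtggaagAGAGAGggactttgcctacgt
Apbb2 6-base exon: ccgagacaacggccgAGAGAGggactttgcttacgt

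Of the 40 events, 33 had a mean of 20 or more junction reads per library and were tested with all others of that depth; 6 of the 17 Apbb1 events and 1 of the 12 Apbb2 events fell below it. An inclusion level is the share of transcripts with the alternative segment, from 0 to 1, estimated from junction reads divided by the length over which each form can collect them. In 15 of the 33 events both sets had levels of 0.95 or more and in 3 both had 0.05 or less. That leaves 15 in which at least 1 set had a level between 0.05 and 0.95, and some of these share skipping reads. The differences were small, with a median size of 0.00808 for the 33 events and 0.0083 for all 39419 events of that depth. Among the distinct skipped exons of the members, 20 of 26 had a length that is a multiple of 3, so that skipping keeps the reading frame where the exon is coding. Over all distinct skipped exons of the table it was 40.7%.

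In the authors' deposited table, 1 of the 40 events had an adjusted p under 0.05, the Clstn1 57-base exon. Over the whole table that held for 1.13% of events, and 0.645% also had a change of 0.10 or more, which 0 of the 40 member events did together with that p. As the p of this Clstn1 exon chose the group, nothing is read from its count. The quasi-binomial test, which uses the spread between libraries, called 0.0279% of all tested events at an adjusted p under 0.05 and a change of 0.10 or more. Of the 30 tested events of App, Aplp1, Aplp2, Apbb1 and Apbb2 it called 0, with a smallest adjusted p of 0.747. At an unadjusted p under 0.05 were 0 of the 30, beside 1496 of all 39419 tested events. Limma on logit levels likewise called 0 of the 30, with a smallest adjusted p of 0.787, and 0 (0%) of all tested events. At an unadjusted limma p under 0.05 were 0 of the 30, beside 1302 of all 39419 tested events. Libraries of the sets did not overlap in 3 of the 33 events, beside 5.93% of all tested events. For 2 of them, both in Clstn1, the higher levels were in set 1, against 3.23% of all tested events, and for 1, in Apbb1, the lower levels were in set 1, against 2.7%. These counts include the Clstn1 57-base exon, whose p in the same contrast chose the group, so nothing is read from its part in them.

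**Figure D1:**
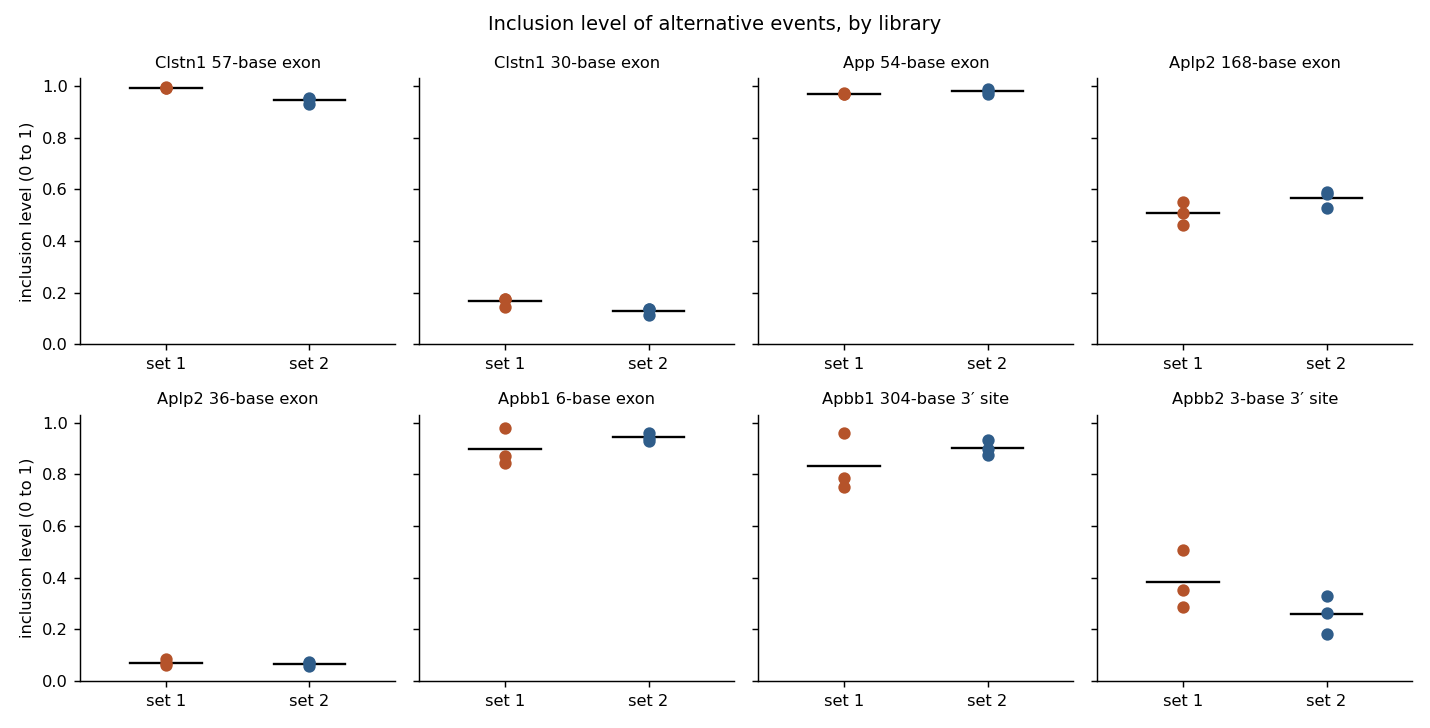
Inclusion level (0 to 1) of 8 alternative events of the members in each library, with set 1 left of set 2; points are libraries and lines are set means. The Clstn1 57-base exon lies at 0.992 to 0.995 in set 1 and 0.931 to 0.956 in set 2, while in the 6 panels of the other genes the libraries of the sets overlap.

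Among the precursors, App had a single event, its 54-base exon, which is exon 15 of 18 of the transcript App-206. Neurons usually keep this exon, and leukocytes and other non-neuronal cells can skip it (the L-APP form). It was included at levels of 0.968, 0.974 and 0.968 in set 1 and 0.99, 0.971 and 0.983 in set 2. On the skipping junction lay 37, 21 and 25 reads of set 1 libraries and 11, 24 and 14 of set 2 libraries, beside 1038 to 1525 inclusion reads in set 1 and 1093 to 1468 in set 2. Skipping was a minor form in all 6 libraries, and the second library of set 2 lay among those of set 1. The mean levels were 0.97 ± 0.00356 in set 1 and 0.981 ± 0.00938 in set 2 (SD, n = 3 libraries each). The difference of −0.0111 did not pass the quasi-binomial test (adjusted p = 0.747), and it was −0.00683 without the first-listed library of set 2. Its p in the authors' deposited table, 0.00653, was the next smallest of the members after that of the Clstn1 exon, with an adjusted p of 0.223.

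Aplp2 held both forms of 1 exon in similar amounts. This Kunitz exon, exon 7 of 17 of Aplp2-201, encodes an inhibitor of serine proteases. It had levels of 0.552, 0.509 and 0.462 in set 1 and 0.589, 0.581 and 0.526 in set 2. Between 839 and 1096 inclusion reads and 426 to 489 skipping reads stood behind each value of set 1, and 928 to 1364 and 334 to 476 behind those of set 2. The levels lay between 0.462 and 0.589 over all libraries, and the ranges of the sets overlapped. The means were 0.508 ± 0.0451 in set 1 and 0.566 ± 0.0342 in set 2 (SD, n = 3 libraries each). The difference of −0.0579 did not pass the quasi-binomial test (unadjusted p = 0.0629, adjusted p = 0.747), and it was −0.0349 without the last-listed library of set 1. With a dispersion prior along the total count, an alternative added after the data were seen, the quasi-binomial adjusted p was 0.0382.

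The 36-base exon of Aplp2, the counterpart in position of the App exon just described, showed the opposite balance. Its levels were 0.084, 0.068 and 0.061 in set 1 and 0.069, 0.072 and 0.058 in set 2. Most transcripts therefore lacked it in every library, while most App transcripts held their 54-base exon. With 1760 of 1929 reads on the skipping junction in set 1 and 1990 of 2164 in set 2, the means were 0.071 ± 0.0118 and 0.0664 ± 0.00762 (SD, n = 3 libraries each), which did not differ beyond the spread (quasi-binomial adjusted p = 0.864). The other Aplp2 exons in the table, of 156 bases (chr9:31151837-31151992) and 159 bases (chr9:31161759-31161917), were almost always included. The 156-base exon had 1 skipping read among 5587 reads in set 1 and 1 among 6539 in set 2, and the 159-base exon 1 among 4678 in set 1 and 7 among 4944 in set 2, of which 6 were in 1 library.

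Aplp1, whose protein is found mainly in neurons, showed hardly any alternative splicing in these events. The 144-base exon at chr7:30444318-30444461 had 0 skipping reads among 1198 in set 1, a count that allows up to 0.25%, and 1 among 1139 in set 2. The 191-base exon at chr7:30442170-30442360 had 0 among 975 in set 1, which allows up to 0.308%, and 1 among 1000 in set 2. An intron of 181 bases at chr7:30442911-30443091 was retained in 1 of 536 reads in set 1 and 1 of 542 reads in set 2. These limits, and the binomial intervals given with other exons, cover counting error only. No Aplp1 event had an adjusted p under 0.747.

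The Clstn1 57-base exon, exon 10 of 18 of Clstn1-202 and coding in 2 annotated transcripts, stood out through its skipping reads. There were 2, 3 and 2 of them in set 1 and 22, 17 and 24 in set 2. Inclusion reads numbered 581, 487 and 469 in set 1 and 663, 461 and 445 in set 2. The inclusion levels were thus 0.995, 0.992 and 0.994 in set 1 and 0.956, 0.952 and 0.931 in set 2. All 3 libraries of set 1 lay above all 3 of set 2, although the exon was the rule in both sets. The means were 0.994 ± 0.00189 in set 1 and 0.946 ± 0.0135 in set 2 (SD, n = 3 libraries each), a difference of 0.0474. In the authors' deposited table its p was 1.14e-11 (rank 9 of 45595) and its adjusted p 4.21e-08, the values that chose the group.

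Seen as shares of reads, the skipping junction took 0.343%, 0.612% and 0.425% of the reads of this exon in set 1, and 3.21%, 3.56% and 5.12% in set 2. In all, 7 of 1544 reads lay on the skipping junction in set 1 and 63 of 1632 in set 2.

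**Figure D2:**
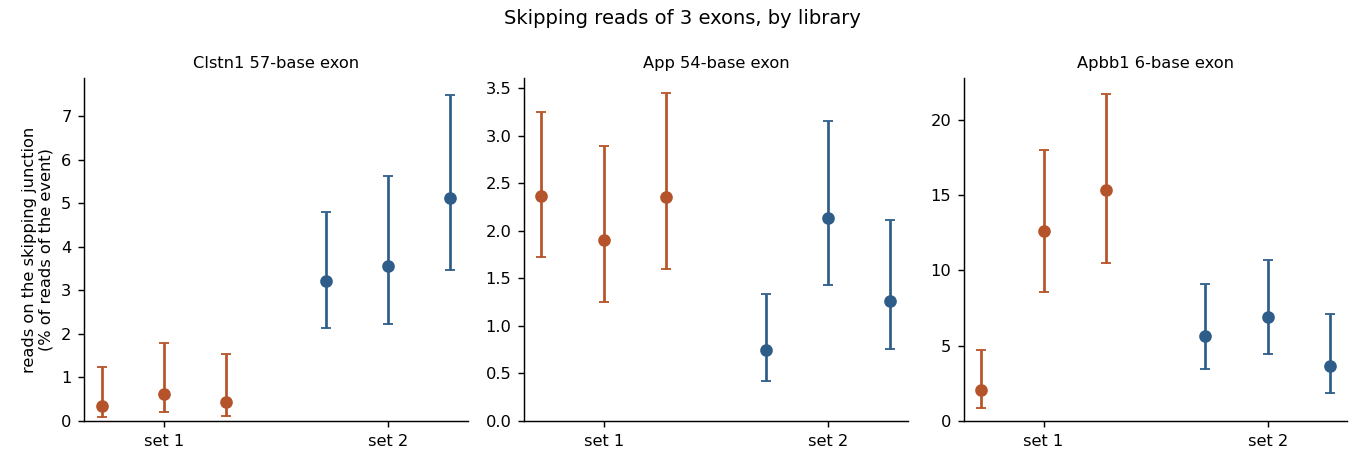
Reads on the skipping junction as a percentage of the reads of the event, in each library of set 1 (left) and set 2 (right), for 3 exons; bars are 95% Wilson intervals and the vertical scales differ. The shares of the Clstn1 exon, which was selected on this contrast, run between 0.343% and 0.612% in set 1 and between 3.21% and 5.12% in set 2; those of the Apbb1 exon reach 15.3% in set 1 and 6.92% in set 2.

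The second alternative exon of Clstn1, of 30 bases, was mostly skipped. It is exon 3 of 19 of Clstn1-201, towards the 5′ end of the coding sequence. Its levels were 0.177, 0.176 and 0.144 in set 1 and 0.135, 0.137 and 0.112 in set 2, on 39 to 51 inclusion reads per library in set 1 and 23 to 48 in set 2. The sets did not overlap, but the third library of set 1 lay close to the upper libraries of set 2. The means were 0.166 ± 0.0189 in set 1 and 0.128 ± 0.0141 in set 2 (SD, n = 3 libraries each). In the authors' deposited table the p of this exon was 0.0708 and its adjusted p 0.93. The 186-base exon at chr4:149631989-149632174 had 2 skipping reads among 2603 in set 1 and 0 among 2625 in set 2, a count that allows up to 0.114%.

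Among the adaptors, Apbb1 contributed the most events, and those with both forms in number centre on its 6-base exon. In neurons this microexon is normally kept, and non-neuronal cells skip it; it lies in the part that encodes the first phosphotyrosine-binding domain. Its levels were 0.979, 0.871 and 0.843 in set 1 and 0.942, 0.929 and 0.962 in set 2. Skipping reads numbered 5, 24 and 24 in set 1 against 15, 18 and 8 in set 2, which is 2.04%, 12.6% and 15.3% of the reads in set 1 and 5.62%, 6.92% and 3.67% in set 2. The libraries of set 1 differed more among themselves than the sets did, with the first-listed library above and the other two below all of set 2. The means of 0.897 ± 0.0719 in set 1 and 0.944 ± 0.0169 in set 2 (SD, n = 3 libraries each) did not pass the quasi-binomial test (adjusted p = 0.747). Leaving out 1 library at a time moved the difference of −0.0468 between −0.0875, without the first-listed library of set 1, and −0.0195, without the last-listed one.

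An alternative 3′ site event of Apbb1, in which 304 bases are added, starts at the acceptor of the microexon and uses the same skipping reads, so it is no independent measurement. Its inclusion reads were 246, 178 and 144 in set 1 and 266, 255 and 226 in set 2. Those of the microexon were close, at 240, 167 and 133 in set 1 and 252, 242 and 210 in set 2. As the 298-base intron after the microexon was seldom retained (below), the levels of this event do not give the share of transcripts with all 304 bases. Its levels were 0.961, 0.788 and 0.75 in set 1 and 0.899, 0.876 and 0.934 in set 2, with means of 0.833 ± 0.113 in set 1 and 0.903 ± 0.029 in set 2 (SD, n = 3 libraries each). The first-listed library of set 1 was again the highest of all 6, and the difference of −0.0701 did not pass (quasi-binomial adjusted p = 0.747). It was −0.134 without that library and −0.0287 without the last-listed one of set 1. In all, 3 of the 17 Apbb1 events share these skipping reads. The third is an acceptor that adds 6 bases to the next exon, and its inclusion junction had 0 reads in set 1 and 1 read in set 2. The 298-base intron after the microexon was retained at mean levels of 0.0429 in set 1 and 0.0489 in set 2 (quasi-binomial adjusted p = 0.803).

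The large 735-base exon of Apbb1, at chr7:105573682-105574416 and partly coding, was the event with lower levels in set 1 in all libraries. It had levels of 0.99, 0.972 and 0.984 in set 1 and 0.996, 0.99 and 0.993 in set 2, on 3, 6 and 3 skipping reads in set 1 and 1, 3 and 2 in set 2. The nearest libraries of the sets are equal at this rounding. The means were 0.982 ± 0.00897 in set 1 and 0.993 ± 0.00336 in set 2 (SD, n = 3 libraries each), with a quasi-binomial adjusted p of 0.747. The difference of −0.0113 was −0.00643 without the second library of set 1. A 115-base non-coding exon at chr7:105575430-105575544 was used in few transcripts, at mean levels of 0.00754 in set 1 and 0.0141 in set 2 (quasi-binomial adjusted p = 0.747). Its inclusion reads were 2, 7 and 2 in set 1 and 17, 4 and 6 in set 2, so the higher mean of set 2 rests on its first-listed library. The 177-base, 115-base and 150-base coding exons of Apbb1 had at most 2 skipping reads in any library. The 6 Apbb1 events below the depth limit had means of 1.0 to 15.83 reads per library and are not described further.

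Apbb2 was covered by fewer reads, and its differences spread more widely around 0 than those of the other members. Its 6-base exon had 8, 7 and 2 inclusion and 5, 8 and 3 skipping reads in set 1, and 12, 3 and 6 inclusion and 7, 7 and 4 skipping reads in set 2. Both forms were present in every library, at mean levels of 0.486 ± 0.11 in set 1 and 0.503 ± 0.182 in set 2 (SD, n = 3 libraries each), and at a mean of 12 reads no difference was detectable. The same 6 bases were thus included at 0.897 in set 1 and 0.944 in set 2 in Apbb1, where the exon was read from 223 junction reads per library on average.

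At 2 places Apbb2 chooses between acceptors 3 bases apart. The optional bases are shown in capitals between the neighbouring exonic bases, with the 15 bases before them from the preceding exon.
Apbb2 site at chr5:66400282-66400284: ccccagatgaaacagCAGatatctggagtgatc
Apbb2 site at chr5:66311081-66311083: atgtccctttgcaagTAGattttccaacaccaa

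At the first of these sites the extra bases were present at levels of 0.508, 0.353 and 0.286 in set 1 and 0.264, 0.33 and 0.182 in set 2. The ranges overlap, with a single library of set 1 standing above the rest. The means were 0.382 ± 0.114 in set 1 and 0.259 ± 0.0742 in set 2 (SD, n = 3 libraries each), on a mean of 48 reads per library. This difference of 0.123 was the largest of the 33 and the only one of 0.10 or more, a size reached by 2.62% of all tested events, and it did not pass the quasi-binomial test (adjusted p = 0.747). Without 1 library it lay between 0.0604, when the first-listed library of set 1 was left out, and 0.172.

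At the second site set 1 was the lower one on average, with 0.833 ± 0.0381 in set 1 and 0.918 ± 0.0556 in set 2 (SD, n = 3 libraries each), with overlapping libraries and a quasi-binomial adjusted p of 0.747. The most covered event of Apbb2, a non-coding exon of 156 bases at chr5:66543462-66543617, had levels of 0.906, 0.953 and 0.878 in set 1 and 1.0, 0.863 and 0.942 in set 2, so that set 2 spanned set 1. With another neighbouring exon the same 156 bases had means of 0.947 in set 1 and 0.885 in set 2, the opposite order, and neither event passed the quasi-binomial test (adjusted p = 0.911 and 0.747). A further non-coding exon of 115 bases, at chr5:66492058-66492172, appears in events with different neighbours, with means of 0.81 in set 1 and 0.857 in set 2 in one and 0.921 in set 1 and 0.851 in set 2 in another. The event at 0.921 and 0.851 has the same skipping reads as the 156-base event at 0.947 and 0.885. They number 1, 1 and 3 in set 1 and 1, 6 and 5 in set 2, so these events are not independent measurements. The coding exons of 147, 63 and 816 bases had at most 2 skipping reads in any library.

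**Figure D3:**
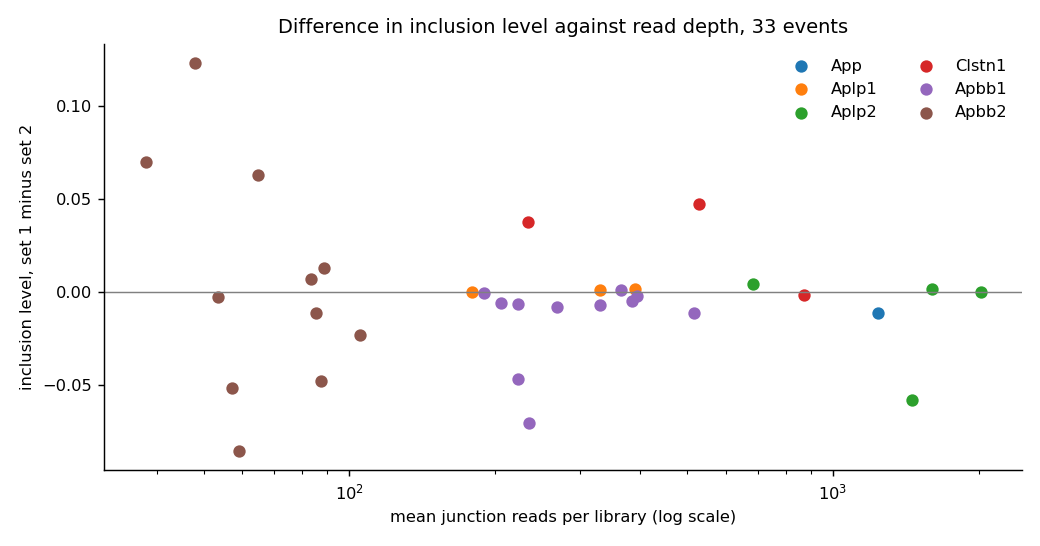
Difference in inclusion level, set 1 minus set 2, against the mean number of junction reads per library (log scale), for the 33 member events with a mean of 20 or more reads, coloured by gene. The Apbb2 events, at 38.0 to 105.3 reads, reach 0.123 at a mean of 48 reads, while the Clstn1 57-base exon stands at 0.0474 with higher depth.

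The number of junction reads itself was compared with the event of most reads standing for each gene, scaled to CPM, the count relative to the summed reads of all genes. Such a total follows both expression and the splicing of that event, and in these bulk libraries fewer cells with a transcript and less RNA per cell cannot be told apart. Per base that a junction read can span, Aplp2 was highest, at 150 (137 to 178 over the 6 libraries) CPM for every 100 such bases. It was followed by App at 136 (130 to 154), Clstn1 at 64.6 (61.7 to 69), Apbb1 at 38.6 (30.6 to 48.9), Aplp1 at 29.9 (23.8 to 34.6) and Apbb2 at 8.31 (5.39 to 10.2). For these events the ranges of Aplp2 and App overlap, as do those of Apbb1 and Aplp1. The other neighbours in this order are separate. The order depends on the event chosen. Of the other Aplp2 events, the Kunitz exon stood at 141, above App, and the remaining events at 99.2 and 118, below App. The non-coding Apbb1 exon stood at 49.0 (40.1 to 62.7), a range that overlaps that of Clstn1 above. The mostly skipped Clstn1 exon was lower, at 33.7 (28.5 to 37.3). Apart from the non-coding exon and the event of most reads, tested Apbb1 events had means below 33.7.

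None of the 5 tested members passed the limma test on log2(CPM + 1), which called 1.06% of 8281 genes. App had totals of 309, 262 and 261 CPM in set 1 and 270, 264 and 273 CPM in set 2, a log2 ratio of 0.04 ± 0.10 (SE; limma adjusted p = 0.963). Aplp2 had 416, 409 and 432 CPM in set 1 and 463, 432 and 530 CPM in set 2. All of set 1 lay below set 2, by less than the rounding at the nearest pair, as did 6.67% of all genes, and the log2 ratio was −0.18 ± 0.10 (SE; limma adjusted p = 0.641). The ratio was −0.09 without the last-listed library of set 2 and −0.04 for the median over the Aplp2 events, of which the other 3 had overlapping totals. Apbb1 had 113, 100 and 90.6 CPM in set 1 and 102, 136 and 145 CPM in set 2. The sets overlapped through the first-listed library of each, with a log2 ratio of −0.32 ± 0.15 (SE; limma unadjusted p = 0.0455, adjusted p = 0.508).

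Aplp1 had 77.0, 94.3 and 101 CPM in set 1 and 69.3, 88.5 and 93.6 CPM in set 2, a log2 ratio of 0.12 ± 0.15 (SE; limma adjusted p = 0.915). Apbb2 had 20, 29.6 and 26.5 CPM in set 1 and 16.1, 25.5 and 24.9 CPM in set 2, a log2 ratio of 0.20 ± 0.22 (SE; limma adjusted p = 0.889). Clstn1 had 187, 205 and 194 CPM in set 1 and 198, 185 and 184 CPM in set 2. Its sets overlapped at a log2 ratio of 0.05 ± 0.10 (SE).

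**Figure D4:**
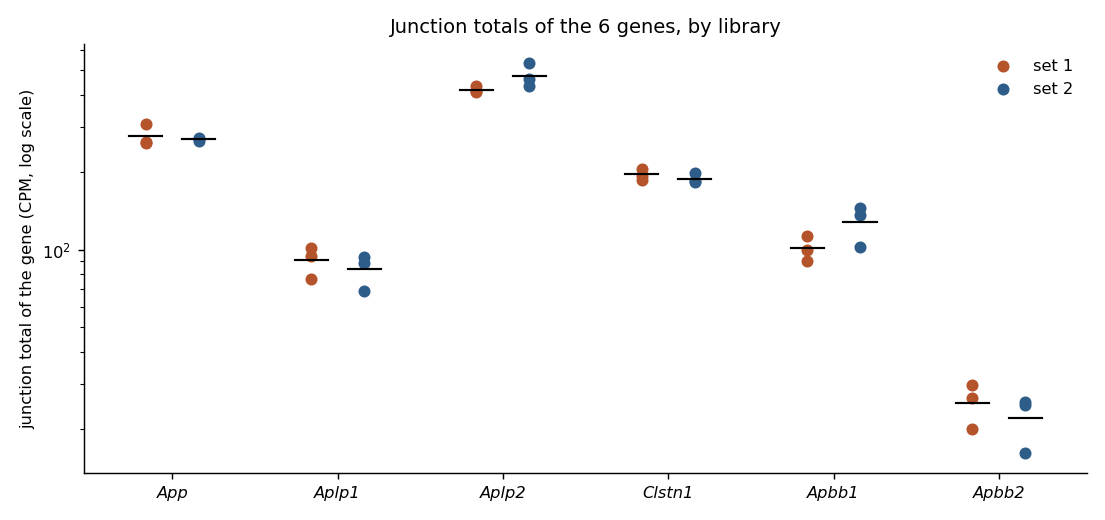
Junction total of the event with the most reads of each of the 6 genes, in CPM on a log scale, in each library of set 1 (left of each pair) and set 2; lines are set means. Means in set 1 run between 25.4 CPM for Apbb2 and 419 CPM for Aplp2, and the sets overlap in all genes but Aplp2.

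Genes that act on or with these proteins were taken from a list of 50: secretases, adaptors, kinesin light chains, sorting and endocytic factors and kinases. Of these, 39 had 177 events in the table and 35 had a measured junction total. In junction total 0 rose and 0 fell by the limma test, beside 1.06% of all genes called. At an unadjusted limma p under 0.05 were 3 of the 35, a count not compared with the share of all genes. The median log2 ratio was 0.04 for the list and 0.01 for all genes. Libraries did not overlap for Aph1a and Gga1, higher in set 1 as were 7.4% of all genes, and for Clu, lower in set 1. The largest ratio was that of Clu, which encodes the extracellular chaperone clusterin. It had 3.76, 2.61 and 1.23 CPM in set 1 and 5.84, 5.84 and 7.14 CPM in set 2, a log2 ratio of −1.10 ± 0.34 (SE; limma adjusted p = 0.21). Its sets did not overlap, but the reads were few. Next came Aph1b, a gamma-secretase subunit gene, at 0.37 ± 0.28, Numbl, an endocytic adaptor gene, at 0.35 ± 0.20 and the protease gene Bace2 at 0.28 ± 0.12 (log2 ratio ± SE; limma adjusted p = 0.784 for Aph1b, 0.666 for Numbl and 0.442 for Bace2).

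In the splicing table, 1 of the 39 listed genes carried an event with an authors' adjusted p under 0.05 and a change of 0.10 or more, beside 2.63% of all genes. It was Numb, an adaptor of endocytosis and Notch signalling, with a 33-base exon at chr12:83825259-83825291. In set 1 its levels were 0.306, 0.432 and 0.391, and in set 2 they were 0.168, 0.158 and 0.171. All of set 1 lay above set 2. The means were 0.376 in set 1 and 0.166 in set 2, with an adjusted p of 0.00478 in the authors' deposited table and 0.747 in the quasi-binomial test. At any size of change, 4 listed genes had an authors' adjusted p under 0.05, a count not compared with the share of all genes. The other 3 had smaller differences: an event of Gga3, a sorting adaptor gene, stood at 0.99 in set 1 and 0.937 in set 2, one of Mapk8ip2, a JNK scaffold gene, at 0.979 in set 1 and 0.914 in set 2, and one of Bin1, a membrane-curving endocytic factor, at 0.953 in set 1 and 0.993 in set 2. By the quasi-binomial test 0 were called among the 161 events of the list that had the required depth.

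Hnrnpdl, the targeted gene, had 399, 428 and 432 CPM in set 1 and 469, 501 and 501 CPM in set 2. All of set 1 lay below set 2, as did 6.67% of all genes, at a log2 ratio of −0.22 ± 0.09 (SE). The limma test gave an unadjusted p of 0.025 and an adjusted p of 0.392. This total is that of a single event and did not pass the test, so the sets were not assigned from it. Junction reads summed over all events ran between 13573870 and 16707466 per library in set 1 and between 13501749 and 18185394 in set 2. The first-listed library of set 1 stood apart on the first principal component of the junction totals, at −5.84 against 18.3 and 22 for the others of its set, beside −18 to −7.67 for set 2. On the second component the first-listed libraries of both sets were lowest, at −18.9 in set 1 and −8.91 in set 2. Of 22 listed neuron and neuroblastoma markers 11 were measured. The limma test called Dbh and Chgb lower in set 1 and 0 higher, beside 1.06% of all genes called. Of the 11, 7 had an unadjusted limma p under 0.05, a count not compared with the share of all genes at that p. Without overlap 4 were lower in set 1, as were 6.67% of all genes, and 0 were higher. The median log2 ratio was −0.36, beside 0.01 for all genes. The summed level was 1847 to 2521 CPM in set 1 and 2707 to 2943 CPM in set 2. The part of these markers in the member results was not tested. Of 20 markers of other cell types 4 had an event in the table and 0 reached the depth to be measured.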

How the data were processed

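Junction reads were analysed for 6 libraries, 3 hnRNP DL-/- and 3 wild type. Per the labels' protocols, RNA was extracted with Trizol and libraries were made with the NEBNext Ultra RNA kit. HTSeq 0.6.0, HISAT2 2.1.0, Bowtie2 2.2.3 and build mm10 stand in the submitters' processing notes; the caller's version is not given in the sources used here. Per the file headers, the deposited table has the columns of rMATS output. It holds the authors' whole-number counts of inclusion and skipping junction reads per library, inclusion levels (fractions), p-values, adjusted p-values and level differences. Levels recomputed from the counts matched those deposited to within 0.0005.

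The 39419 events whose count averaged at least 20 were tested with a moderated quasi-binomial test written in R 4.3.3 with limma 3.58.1, with Benjamini-Hochberg adjustment over all of them; calls needed an adjusted p under 0.05 and a change of 0.10. Its dispersion prior follows the reads of the rarer form and is estimated from events with 5 or more such reads; another form of the prior changes the number of calls. Junction totals were scaled by the library's sum (CPM) and entered limma, with a mean-variance trend, as log2(CPM + 1), a scale that understates changes of genes with few reads. Both tests were also run on simulated data, with no result given here. For the event test, changes were set only in skipped exons with middle inclusion shares, at a fixed spread between libraries. Detection of changes at levels near 0 or 1 was therefore not tested. Binomial intervals are 95% Wilson intervals and limits for a count of 0 take 3 reads; summaries used Python 3.11.15 with scipy 1.17.1 and pandas 2.3.3. Libraries of a set differed beyond sampling noise (chi-square per degree of freedom of 2.74 to 7.46), so none was counted as a duplicate.

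The members and gene lists were chosen with earlier results of these data known. Named are, for each member, the event with the most reads, that with the largest difference, those whose sets did not overlap and those with an authors' adjusted p under 0.05 and a change of 0.10. Of the other genes, Hnrnpdl was named, listed genes with a called event or total, and the 4 with the largest change in total. The 6-base exons, the 36-base Aplp2 exon and further events were named after their values were seen. For mutually exclusive exons the direction is not interpreted. Annotation and sequences are from GENCODE vM21, with 1-based coordinates. How libraries were stranded in counting is not given in the sources used here.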

Additional observations from a re-analysis of the deposited data

How the results depend on the processing

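No paired analysis was possible because the libraries of a set carry no replicate number in the table. Libraries are named by their place in the table. The quasi-binomial test called 11 events over the table. It called 24 with no minimum change, 3 with a change of 0.20 or more, 64 with the dispersion prior along the total count (chosen after seeing the data), 0 by limma on logit levels, and 2 to 19 with a library left out (2 without library 2 and 19 without library 1 of set 1, 6 and 5 without library 1 and 2 of set 2). Events of the 5 tested members numbered 0 in each of these settings; with the prior along the total count, 1 of them, the Aplp2 168-base exon, had an adjusted p under 0.05 (0.0382) at a change below 0.10. Genes called in junction total numbered 88, and 25 to 286 with a library left out (286, 25 and 41 without library 1, 2 and 3 of set 1, and 32 and 43 without library 2 and 3 of set 2).

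Of 104 alternative values of the 13 named member event differences, 97 kept their direction. The exceptions were the Aplp2 156-base exon (−5.21e-05 with pooled reads, −0.000317 to 0.00036 with a library left out), the Aplp2 36-base exon (−0.00179 to 0.00968), the Apbb2 156-base exon (−0.0588 to 0.00957) and the Aplp1 144-base exon (0 to 0.00257), all 3 with a library left out. Of 72 values of the member totals, 68 kept their direction; leaving out a library gave log2 ratios of −0.04 to 0.08 for App, −0.01 to 0.23 for Aplp1 and −0.01 to 0.35 for Apbb2, and the median over its events gave −0.02 for Clstn1. The cause was not tested. The count-model tests planned for the totals (edgeR and DESeq2) were not run. Depth limits most the Apbb2 events and the 7 member events below a mean of 20 reads. Genotype cannot be assigned to the sets, so no direction here is that of the knockout.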
